A study of Mus musculus with 8 samples.

Results

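Potassium channel genes were followed across alphaTC6 cells, a line of mouse pancreatic alpha cells, after knockdown of the zinc finger transcription factor Klf4. Members were chosen by symbol: every gene of the table whose symbol begins with Kcn, further letters and a number, except those ending in -ps or os, and in addition Abcc8 and Abcc9, which encode the sulfonylurea receptors of ATP-sensitive potassium channels. The rule matched 98 of 55536 genes, and the 31 with a mean of at least 1 CPM (a read count scaled to library size, with totals adjusted by TMM, a correction for library composition) over the 8 libraries are described. Just inside this limit lay Kcnj14, Kcnt2 and Kcnh4 with means of 1.32, 1.07 and 1.03 CPM, and just outside it Kcnk10, Kcna5 and Kcnn3 with 0.851, 0.765 and 0.465 CPM. One member with enough reads encodes no protein: Kcnq1ot1 is a long non-coding RNA transcribed antisense to Kcnq1.

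The cells, of genotype WT per the labels, were reverse transfected for 48 h with RNAiMax Lipofectamine and either siRNA against Klf4 or a scramble siRNA, before poly(A) RNA was sequenced. There were 4 libraries per treatment, which the design text calls biological replicates. Batch 1 held scramble replicates 1 and 2 and Klf4 siRNA replicates 1, 2 and 4, and batch 2 held scramble replicates 3 and 4 and Klf4 siRNA replicate 3, per the labels. What a batch stands for is not stated there, and the extraction text of the labels speaks of islets although alphaTC6 is the label of all 8 samples. All libraries come from 1 transfected line, so the results describe this line and not alpha cells in an islet.

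Potassium channels let potassium leave the cell and so hold the membrane potential negative and end action potentials. In islet cells the ATP-sensitive channel, built from pore subunits encoded by Kcnj11 and receptor subunits encoded by Abcc8, closes when metabolism raises ATP and thereby couples glucose to electrical activity and hormone release. Voltage-gated channels repolarise each action potential, 2-pore channels carry resting leak current, and G protein-gated inward rectifiers slow firing when inhibitory hormones such as somatostatin bind their receptors.

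Total counts ran from 45954151 to 64185987 per library. Klf4 itself had 41.8 ± 5.66 CPM (SD, n = 4) in scramble and 15.6 ± 4.26 CPM (SD, n = 4) in Klf4 siRNA libraries, with no overlap. Of 7 alpha cell markers 6 were tested: these were present, among them Gcg, Irx2, Ttr and Pcsk2, and Gc, the vitamin D-binding protein gene, had at most 4 counts in any library. The beta cell genes Ins1, Ins2, Pdx1 and Ucn3 had 0 counts in all 8 libraries, Iapp and Slc2a2 had at most 19 and 13 counts, and Mafa had 143 to 207 counts.

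Counted as reads, the 31 members together took between 1616 and 1746 CPM of a library, and the 5 most abundant of them 64.9% to 66.2% of that sum. Levels between genes were compared as CPM per kilobase of annotated exon sequence. On that scale Kcnh2, which encodes a voltage-gated channel of the ether-a-go-go-related (ERG) group, ranked first with a mean of 39.5, and Abcc8 had 36.3. Kcnip3, which encodes a calcium-binding partner of voltage-gated channels, had 33.8 and Kcnj11 33.2 CPM per kilobase. Kcnh6, another ERG channel gene, had 27.6 and Kcnk3, a 2-pore acid-sensitive leak channel gene, 21.7 CPM per kilobase. Further down were Kcnk16 (11.2), Kcnab2 (10.9), Kcnk1 (6.89) and Kcnj3 (4.44), and the lowest of the 31 was Kcnt2 with 0.155 CPM per kilobase.

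**Figure D1:**
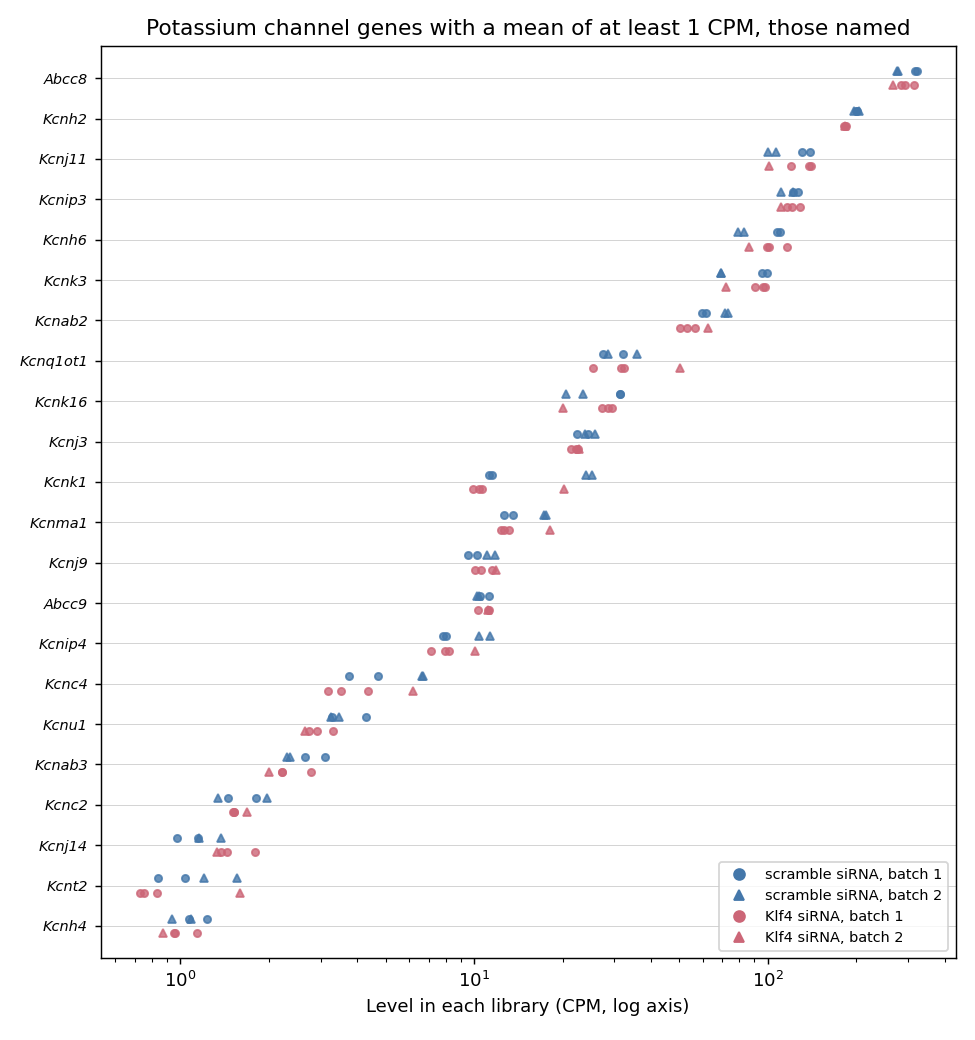
Level of 22 of the 31 members in each library, in CPM on a log axis, sorted by the mean. Points are single libraries, coloured by treatment and shaped by batch; Abcc8 lies at 266 to 321 CPM, and Kcnk1 splits by batch.

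The families differed in how many members were expressed. Of 15 inward rectifiers (Kcnj) 4 passed 1 CPM, of 14 2-pore channels (Kcnk) 5, of 17 voltage-gated pore subunits (Kcna, Kcnb, Kcnc, Kcnd) 5, of 8 Kcnh channels 3 and of 5 Kcnq channels 2. All 8 genes grouped as calcium- or sodium-activated channels (Kcnma, Kcnn, Kcnt and the pH-sensitive Kcnu1) had at least 1 count, and 5 passed 1 CPM. None of 10 silent subunits (Kcnf, Kcng, Kcns, Kcnv), which act only by joining other pore subunits, passed. Of 18 auxiliary subunits, 6 passed. Across all families 21 matched genes had 0 counts in every library, for which 3 counts per library is the level that a count of 0 allows. Among them were Kcnb2, Kcnk5 and the inward rectifier gene Kcnj2.

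Kcnj11 and Abcc8 lie close together on chromosome 7 of GRCm38, Kcnj11 (ENSMUSG00000096146) at 46093953 to 46100764 and Abcc8 (ENSMUSG00000040136) at 46104523 to 46180033, both on the minus strand. In batch 1, Kcnj11 had 131 and 139.6 CPM with scramble and 138, 139.8 and 120.2 CPM with Klf4 siRNA, and in batch 2 it had 100.4 and 107 CPM with scramble and 101 CPM with Klf4 siRNA. The treatments overlapped in both batches, while every library of batch 2 lay below every library of batch 1. Its log2 fold change after Klf4 siRNA was -0.030 (SE 0.048, Benjamini-Hochberg adjusted p = 0.779, from edgeR's quasi-likelihood test with batch in the model).

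Abcc8 had 321 and 316 CPM with scramble and 313, 294 and 284 CPM with Klf4 siRNA in batch 1, and 278 and 275 CPM against 266 CPM in batch 2. The Klf4 siRNA libraries lay below the scramble libraries of their batch, and the log2 fold change of -0.084 (SE 0.031, edgeR adjusted p = 0.093) did not pass the threshold of 0.05. It passed in 1 of 8 fits with a library left out (edgeR adjusted p = 0.036 without Klf4 siRNA replicate 1, and up to 0.332 without scramble replicate 1), and without the batch term it was -0.039 (edgeR adjusted p = 0.837). Per kilobase, the ratio of Abcc8 to Kcnj11 was 0.956 to 1.11 in the libraries of batch 1 and 1.17 to 1.26 in those of batch 2. The paralogous pair of the vascular form was far lower: Abcc9, whose exons overlap an antisense gene, had a mean of 1.29 CPM per kilobase, and Kcnj8, at a mean of 0.229 CPM, did not reach the limit for description.

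After Klf4 siRNA, 4 of the 31 members (12.9%) passed an edgeR adjusted p under 0.05, and all 4 were lower. Among all 16333 genes tested the share was 11.7% (6.81% lower, 4.88% higher), and among the 12717 genes of at least 1 CPM it was 14.8% (8.59% lower, 6.22% higher), so the members were called about as often as other genes. Of the 31 members, 21 had a negative and 10 a positive log2 fold change, with a median of -0.053, against 49.4% negative and a median of 0.0014 over all genes of at least 1 CPM. The 4 genes were Kcnab2, Kcnh2, Kcnk1 and Kcnu1, from 4 different families. Without Klf4 siRNA replicate 3 the count was 2, Kcnab2 and Kcnh2. In bulk RNA, fewer cells that express a gene and less RNA per cell cannot be told apart.

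**Figure D2:**
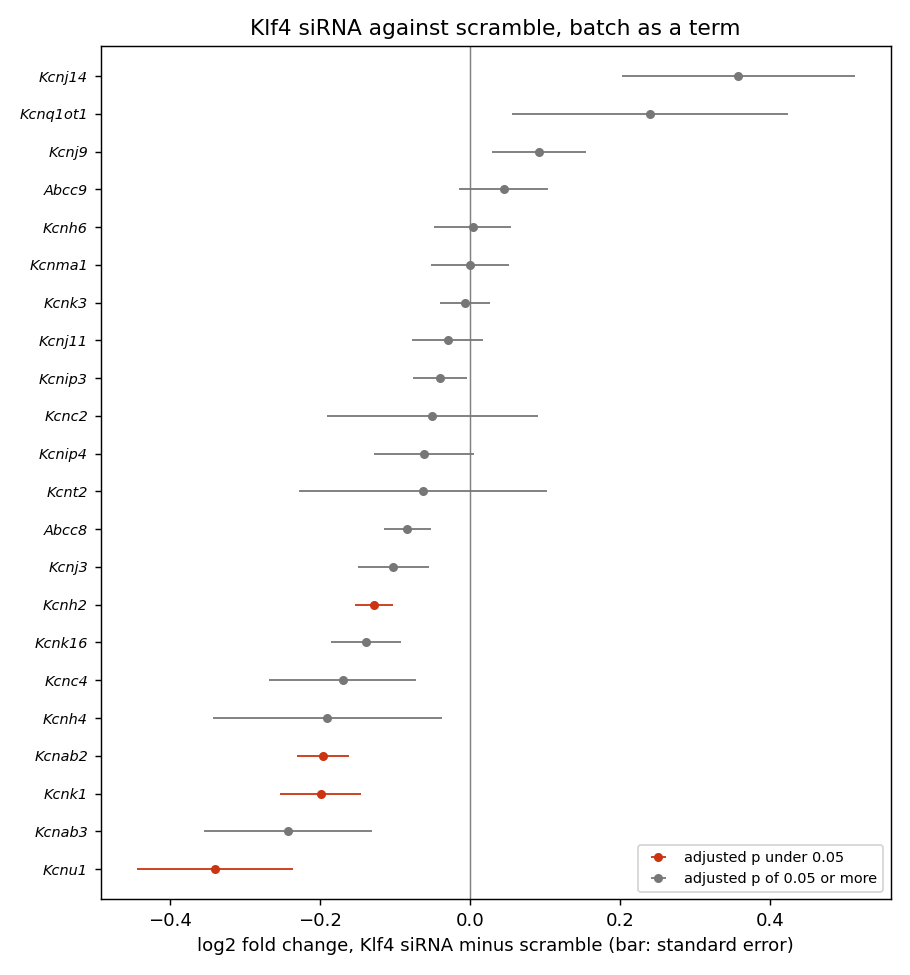
Log2 fold change of 22 of the 31 members after Klf4 siRNA (x axis, with its standard error), sorted by size, with batch as a term. The 4 members past an adjusted p under 0.05 are in red, and all lie below 0, between -0.34 and -0.13.

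Kcnh2 is the ERG channel gene that in the heart ends the action potential and whose channel is blocked by many drugs. Kcnh2 (ENSMUSG00000038319, chromosome 5, 24319589 to 24351604, minus strand) had 201, 199, 196 and 205 CPM in scramble replicates 1 to 4 and 184, 183, 183 and 182 CPM in Klf4 siRNA replicates 1 to 4. Every Klf4 siRNA library lay below every scramble library, in both batches. Kcnh2 fell to 91.5% of the control level, a log2 fold change of -0.13 (SE 0.026, edgeR adjusted p = 0.0022). The change was -0.13 within batch 1 and -0.13 within batch 2. It passed the threshold under each alternative tried, the batch term left out included. Its relative Kcnh6, at 94.9 ± 16.4 CPM with scramble and 101 ± 12.2 CPM with Klf4 siRNA (SD, n = 4), had a log2 fold change of 0.0032 (SE 0.051, edgeR adjusted p = 0.983).

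Kcnab2 encodes a cytoplasmic beta subunit that binds voltage-gated channels of the Kcna family. In batch 1, Kcnab2 (ENSMUSG00000028931, chromosome 4, 152390742 to 152477871, minus strand) had 61.4 and 59.9 CPM with scramble and 50.2, 53.1 and 56.3 CPM with Klf4 siRNA, and in batch 2 71.6 and 73.2 CPM against 62.7 CPM. Within each batch the Klf4 siRNA libraries were lower with no overlap, while the Klf4 siRNA library of batch 2 lay above the scramble libraries of batch 1. Kcnab2 fell to 87.3% of control, a log2 fold change of -0.20 (SE 0.035, edgeR adjusted p = 0.00063), with -0.19 within batch 1 and -0.21 within batch 2. Without the batch term the log2 fold change was -0.26 (SE 0.087, edgeR adjusted p = 0.189). The pore partners of this subunit were scarce: no Kcna gene reached a mean of 1 CPM over the 8 libraries. The other beta subunit gene of at least 1 CPM, Kcnab3, whose exons overlap its antisense gene, had a log2 fold change of -0.24 that did not pass the threshold (SE 0.11, edgeR adjusted p = 0.188).

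Kcnk1 encodes a 2-pore channel with a weak inward rectification. Kcnk1 (ENSMUSG00000033998, chromosome 8, 125995170 to 126030685, plus strand) had 11.2 and 11.5 CPM with scramble and 9.94, 10.6 and 10.4 CPM with Klf4 siRNA in batch 1, and 24.1 and 25.2 CPM against 20.2 CPM in batch 2. The difference between batches was larger than that between treatments, and within each batch the Klf4 siRNA libraries were the lower ones. Its log2 fold change after Klf4 siRNA was -0.20 (SE 0.054, edgeR adjusted p = 0.018), with -0.14 within batch 1 and -0.29 within batch 2. This call rests on single libraries. Without Klf4 siRNA replicate 3 the log2 fold change was -0.14 (edgeR adjusted p = 0.274), and without scramble replicate 2 it was -0.21 (edgeR adjusted p = 0.057). In batch 1 alone the edgeR adjusted p was 0.315. Without the batch term the log2 fold change was -0.50 (edgeR adjusted p = 0.615). With the replicate number in place of batch it was -0.46 (edgeR adjusted p = 0.367).

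Kcnu1 encodes a pH-sensitive channel known from sperm. Kcnu1 (ENSMUSG00000031576, chromosome 8, 25849623 to 25937939, plus strand) had 4.28 and 3.29 CPM with scramble and 2.92, 3.32 and 2.75 CPM with Klf4 siRNA in batch 1, and 3.26 and 3.47 CPM against 2.66 CPM in batch 2. These levels correspond to 140 to 239 counts per library, and the treatments overlapped in batch 1. The log2 fold change was -0.34 (SE 0.10, edgeR adjusted p = 0.038), the largest in size among the 4. Leaving out single libraries lost the call in 6 of 8 fits, the edgeR adjusted p being 0.310 without scramble replicate 1. It was also lost with DESeq2 (adjusted p = 0.058) and limma-voom (adjusted p = 0.068).

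The other 27 members did not pass the threshold, with log2 fold changes between -0.24 (Kcnab3) and 0.36 (Kcnj14, an inward rectifier gene, SE 0.16, edgeR adjusted p = 0.16). Kcnk16, a 2-pore channel gene of islet cells, came close, with a log2 fold change of -0.14 (SE 0.047, edgeR adjusted p = 0.059). With a library left out its edgeR adjusted p ran from 0.022 (without scramble replicate 3, the only such fit in which it passed) to 0.196. Without the batch term the log2 fold change was -0.018 (edgeR adjusted p = 0.978). Kcnk16 passed when the filter on genes was changed: the edgeR adjusted p was 0.042 with no filter and 0.046 with a mean of at least 5 CPM. Kcnj3, the main expressed pore gene of the G protein-gated inward rectifiers, had 24.1 ± 1.48 CPM with scramble and 22.2 ± 0.585 CPM with Klf4 siRNA (SD, n = 4), a log2 fold change of -0.10 (SE 0.047, edgeR adjusted p = 0.187). Its partner Kcnj9 had a log2 fold change of 0.091 (SE 0.063, edgeR adjusted p = 0.416), and no library had more than 1 count for Kcnj5 or 11 for Kcnj6, the other partners. The abundant Kcnip3 had a log2 fold change of -0.041 (SE 0.036, edgeR adjusted p = 0.559). Kcnip3 had 122, 127, 111 and 122 CPM in scramble replicates 1 to 4 and 120.5, 128, 111 and 117 CPM in Klf4 siRNA replicates 1 to 4, so that the treatments overlapped.

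**Figure D3:**
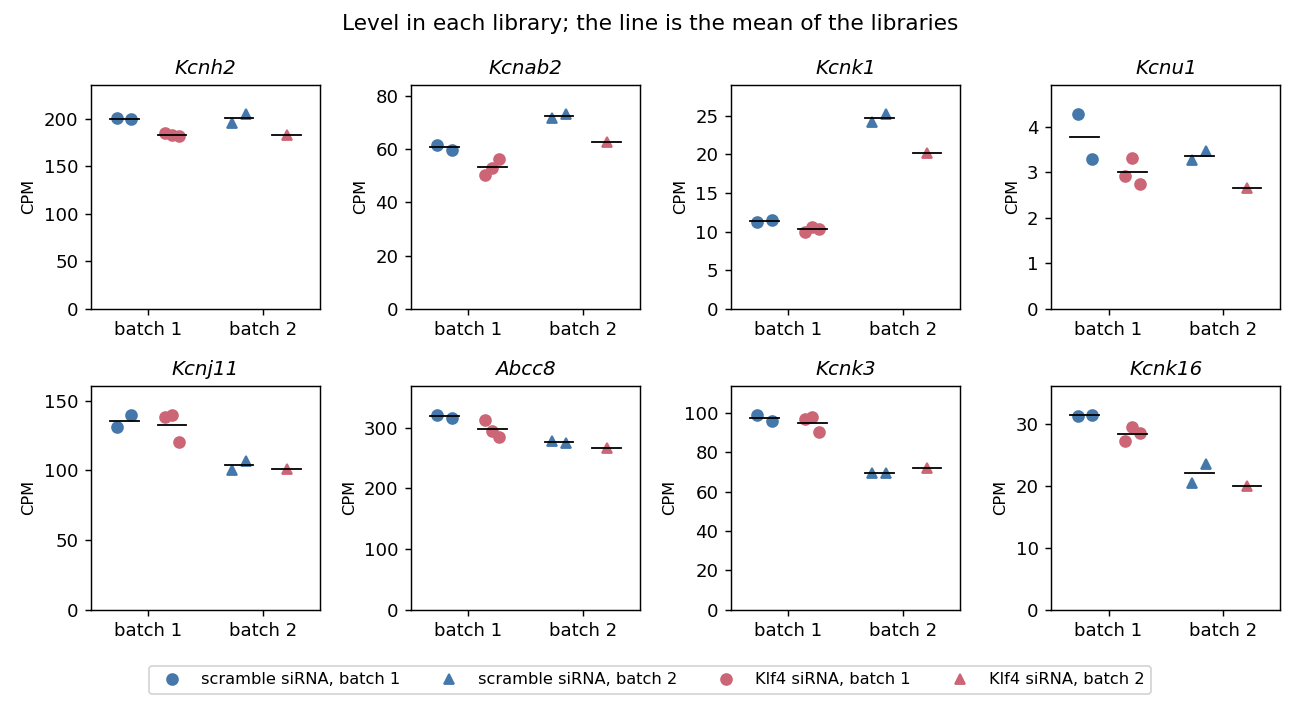
Level in CPM of 8 members in each library (y axis from 0), by batch and treatment, with the mean of the libraries as a line. Kcnh2, Kcnab2 and Kcnk1 are lower with Klf4 siRNA within each batch, and Kcnj11, Abcc8, Kcnk3 and Kcnk16 are lower in batch 2.

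The promoters of the genes that fell were read for words resembling the binding site of KLF factors, which bind GC-rich and CACCC elements. RefSeq starts were available for 19 of the 31 members (31 promoters, as a gene can have several) and for 3 of the 4 genes that fell. The 250 bases before a start are shown 5′ to 3′ on the gene's strand, in GRCm38.p6, with CACCC or its reverse complement GGGTG in capitals. For Kcnh2 the only start available lies inside the annotated gene. For Kcnab2, which has 3, the start nearest the 5′ end of the gene was taken, and this start also lies inside the annotated gene.
Kcnh2 (chr5:24329592-24329841, minus strand): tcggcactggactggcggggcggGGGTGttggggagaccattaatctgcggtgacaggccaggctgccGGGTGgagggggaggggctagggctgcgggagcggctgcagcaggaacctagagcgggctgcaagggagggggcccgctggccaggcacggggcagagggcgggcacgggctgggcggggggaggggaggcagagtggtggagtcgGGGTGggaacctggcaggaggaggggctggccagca
Kcnab2 (chr4:152477550-152477799, minus strand): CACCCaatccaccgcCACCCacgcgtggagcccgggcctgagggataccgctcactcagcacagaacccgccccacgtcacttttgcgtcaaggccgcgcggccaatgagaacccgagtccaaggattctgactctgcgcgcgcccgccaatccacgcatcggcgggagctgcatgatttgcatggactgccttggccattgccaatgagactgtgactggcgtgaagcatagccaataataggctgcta
Kcnk1 (chr8:125994852-125995101, plus strand): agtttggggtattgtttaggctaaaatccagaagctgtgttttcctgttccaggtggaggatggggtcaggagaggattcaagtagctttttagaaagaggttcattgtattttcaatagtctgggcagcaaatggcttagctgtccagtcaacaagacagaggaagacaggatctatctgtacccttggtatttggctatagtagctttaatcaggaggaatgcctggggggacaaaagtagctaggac
The Kcnh2 stretch holds the word 3 times, that of Kcnab2 2 times and that of Kcnk1 0 times. Of all 5 promoters of these 3 genes, 2 hold it, so the other 2 starts of Kcnab2 lack it. Over both strands, CACCC occurred in 52.0% of all 32851 promoters of this length and in 24 of the 31 member promoters (77.4%), whose median GC content was 58.8% against 52.4% for all. The longer word GGGTGTGG occurred in 3.20% of all promoters, 1 of the 31 and 0 of the 5. The word GGGCGTGG occurred in 4.79% of all promoters, 3 of the 31 and 1 of the 5, which is not among the stretches shown. A match in letters is a description and no measured binding.

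By batch, 16 of the 31 members (51.6%) passed an edgeR adjusted p under 0.05 with treatment as a term, 9 higher and 7 lower in batch 2. Among all genes tested 32.7% did (16.8% higher, 15.9% lower), and among genes of at least 1 CPM 37.8%. An edgeR adjusted p under 0.05 together with a difference of at least 1 on the log2 scale was found for 3 members, Kcnk1 among them. The same held for 4.19% of all genes tested and for 2.95% of those of at least 1 CPM. The median absolute log2 difference was 0.20 over the 31 members and 0.097 over all genes of at least 1 CPM.

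**Figure D4:**
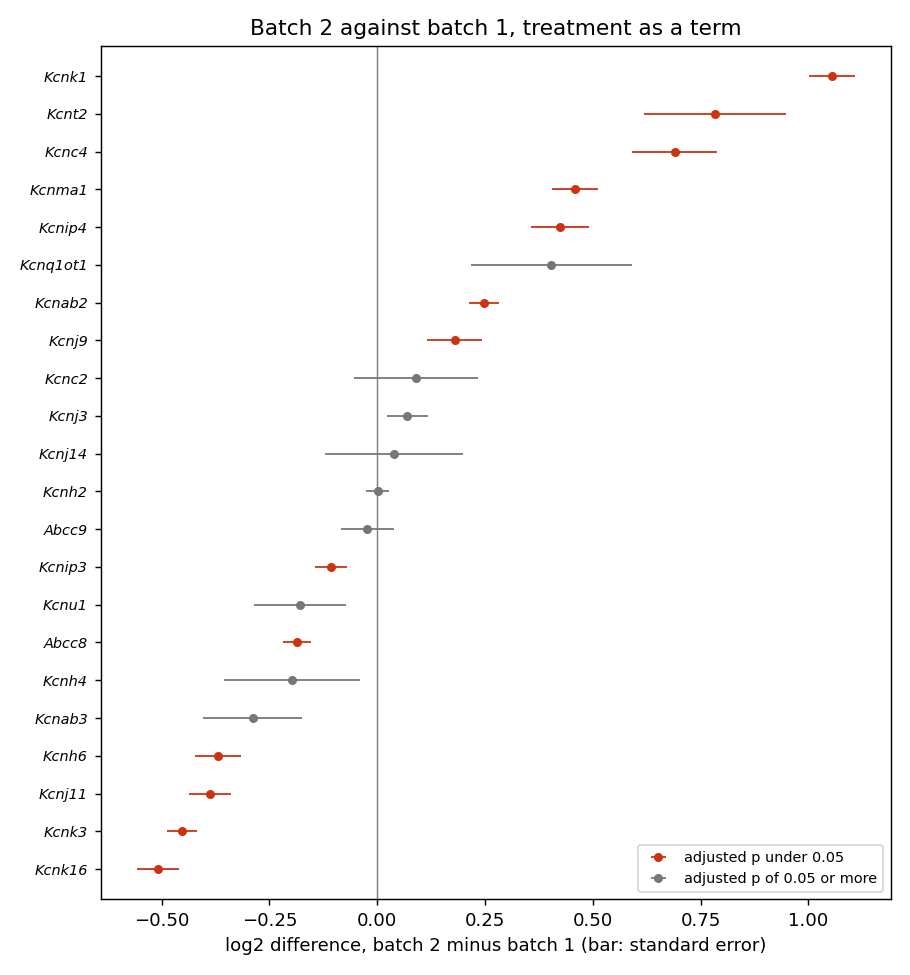
Log2 difference of 22 of the 31 members between batch 2 and batch 1 (x axis, with its standard error), sorted by size, with treatment as a term. Red points passed an adjusted p under 0.05; Kcnk1 lies at 1.05 and Kcnk16 at -0.51.

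The 2-pore channel gene Kcnk1 was 2.08-fold higher in batch 2 (log2 1.05, SE 0.053, edgeR adjusted p = 3.21e-12). Kcnt2, a sodium-activated channel gene, had 0.839 ± 0.123 CPM in batch 1 (SD, n = 5) and 1.45 ± 0.213 CPM in batch 2 (SD, n = 3), a log2 difference of 0.78 (SE 0.16, edgeR adjusted p = 0.00091). Without Klf4 siRNA replicate 3 this was 0.57 (edgeR adjusted p = 0.060). In single libraries Kcnt2 had 0.841, 1.04, 1.56 and 1.21 CPM in scramble replicates 1 to 4 and 0.832, 0.726, 1.59 and 0.754 CPM in Klf4 siRNA replicates 1 to 4, so that batch 2 was higher with no overlap. Kcnma1, which encodes the large-conductance calcium-activated channel, was 1.37-fold higher in batch 2 (edgeR adjusted p = 9.78e-07), Kcnc4 1.61-fold (1.47e-05) and Kcnab2 1.19-fold (1.46e-05).

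The 2-pore channels with the highest levels were lower in batch 2. Kcnk16 had 31.3, 31.5, 27.3, 29.5 and 28.5 CPM in batch 1 (scramble replicates first) and 20.5, 23.5 and 20 CPM in batch 2, a log2 difference of -0.51 (SE 0.049, edgeR adjusted p = 6.09e-08). Kcnk3 had 99, 95.9, 96.7, 98 and 90.3 CPM in batch 1 and 69.3, 69.5 and 71.8 CPM in batch 2, a log2 difference of -0.45 (SE 0.035, edgeR adjusted p = 2.16e-09). Neither gene overlapped between batches. Both subunits of the ATP-sensitive channel were also lower in batch 2, Kcnj11 1.31-fold (log2 -0.39, SE 0.05, edgeR adjusted p = 7.12e-05) and Abcc8 1.14-fold (log2 -0.19, SE 0.032, edgeR adjusted p = 0.00014). Kcnh6 was 1.29-fold lower (edgeR adjusted p = 0.00024).

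Markers moved with batch as well. Summed over the 7 alpha cell markers, levels were 4512 to 4806 CPM in the libraries of batch 1 and 11455 to 12748 CPM in those of batch 2, mainly through Gcg, the glucagon gene (log2 difference 2.80, edgeR adjusted p = 2.17e-17). Ttr, the transthyretin gene, differed by 0.60 (edgeR adjusted p = 6.04e-05). Of 20 markers of other cell types, 5 had 0 counts in every library, 5 were tested and 2 differed between batches: Sox9, a duct cell factor gene, by 1.61 (edgeR adjusted p = 6.95e-10) and Pdgfra, a fibroblast receptor gene, by -1.12 (2.94e-08). The duct cell list summed to 1.07 to 1.57 CPM in batch 1 and 3.74 to 4.63 CPM in batch 2, with Krt19 at no more than 2 counts, and the fibroblast list to 5.16 to 7.09 and 3.00 to 3.38 CPM, with Col1a1 at no more than 10 counts. After Klf4 siRNA, 3 of the 6 alpha cell markers tested passed the threshold, all lower (Gcg among them, with a log2 fold change of -0.18). Irx2, Pcsk2 and Ttr did not pass, with log2 fold changes of -0.014, 0.011 and 0.14. Of the 5 tested markers of other cell types 0 passed. Among all genes tested, 6.81% were called lower and 4.88% higher. The part of these differences in the results on channel genes was not tested.

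Whether the change after Klf4 siRNA differed between batches was tested as an interaction, with 1 Klf4 siRNA library in batch 2. It passed the edgeR threshold for 0 of the 31 members and for 0% of all genes tested, and at an unadjusted p under 0.05 for 0 of the 31 and 540 of 16333 genes. A single library on one side limits what this test can find.

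A list of 39 other genes for potassium transport was read from the same fit, of which 22 were tested. After Klf4 siRNA 4 of the 22 were lower and 0 higher, against 6.81% lower and 4.88% higher among all genes tested. Among the 4, Fxyd6, a regulator of the sodium pump, had a log2 fold change of -0.16 (SE 0.033, edgeR adjusted p = 0.0037, 0.0503 without scramble replicate 1). Amigo1, a partner of voltage-gated channels, and Dpp6, a partner of Kcnd channels, had log2 fold changes of -0.15 and -0.18 (SE 0.045 and 0.058, edgeR adjusted p = 0.031 and 0.049). These calls were lost in 5 and 7 of 8 fits that left out a library, reaching 0.201 for Amigo1 without scramble replicate 2 and 0.241 for Dpp6 without scramble replicate 1. The sodium pump gene Atp1b1 had a log2 fold change of -0.056 that did not pass (SE 0.03, edgeR adjusted p = 0.273). The median of the 22 genes was -0.013.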

How the data were processed

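The authors deposited raw read counts by gene as whole numbers, in 1 table of 8 libraries. FastQC, STAR, featureCounts and DESeq2 and the build mm10 are named in the submitters' processing notes, without versions; the use of strand is not given in the sources used here. The design text names edgeR with batch correction. All 55536 gene identifiers matched GENCODE release M21 (GRCm38), which gave positions and exon lengths. Exons of 15 of the 31 members overlap another annotation; its mean level was up to 3.34% of the member's except for Kcnip4 (9.21 CPM from 5730480H06Rik, about as much as Kcnip4), Abcc9 (12.9%) and Kcnab3 (8.88%), whose counts are uncertain.

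Genes were filtered with filterByExpr (16333 tested; 39 of the 98 members) and scaled by TMM (factors 0.964 to 1.02). Batch and treatment were fitted with the robust quasi-likelihood method of edgeR 4.0.16 (R 4.3.3) with 5 residual degrees of freedom, two-sided, with Benjamini-Hochberg adjustment over all tested genes and a threshold of 0.05. Standard errors (SE) were obtained from the F statistic, as the absolute effect divided by √F. Within-batch changes are differences of mean log2 CPM with a prior count of 2. Since PCR duplicates may be among the reads, errors come from the variation of libraries and not from counting. Promoters were taken from RefSeq (GRCm38.p6). Alternatives used DESeq2 1.42.0 and limma 3.58.1, among others. Members, lists and tests were chosen with earlier results of these data known. Full values were given for Kcnj11, Abcc8, members past the threshold, the 3 largest batch differences in each direction and the 5 highest levels per kilobase, and from the list of other genes at most 4 past the threshold; other members appear by family, items that this rule names but are not reported here excepted, and those given values beyond this rule were chosen after their values were seen.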

Additional observations from a re-analysis of the deposited data

Results flagged for a closer look

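In 27 of the 31 members, the highest and lowest of the 4 libraries of a treatment were compared with the rest: the distance to the next library was divided by the whole range and set against Dixon's critical value, which chance passes in about 1 of 20 groups. That rate holds for like libraries. Each treatment held libraries of both batches, so the number of groups passing cannot be read against it. Of 54 groups, 5 exceeded the critical value. In 4 of these it was Klf4 siRNA replicate 3, which no other library of its treatment joins in batch 2. It was highest for Kcnk1 (0.936; 20.2 CPM against 10.6 in the next library), Kcnc2 (0.919; 1.69 against 1.52 CPM), Kcnt2 (0.878; 1.59 against 0.832 CPM) and Kcnma1 (0.861; 18.2 against 13.2 CPM). For Kcnk1, Kcnt2 and Kcnma1 scramble libraries differed in the same direction between batches, whereas for Kcnc2 the scramble libraries of both batches overlapped. Klf4 siRNA replicate 4 was lowest for Abcc9 (0.886; 10.3 against 11.1 CPM).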

How the results depend on the processing

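The number of members called after Klf4 siRNA was 1 without the batch term, 2 in batch 1 alone and 2 with the replicate block instead of batch, and 2 to 4 when a library was left out. Over all genes these counts were 409, 1232, 1220 and 934 to 2021 (934, 1012 and 1232 without scramble replicate 1, scramble replicate 2 and Klf4 siRNA replicate 3). Of the other transport genes 1 was called without the batch term and 1 to 3 when a library was left out. Under the other settings the counts stayed within 1.5 times. The block kept Kcnab2 and Kcnh2 and lost Kcnk1 and Kcnu1. Deviations of same-numbered libraries from their treatment means correlated at 0.49, 0.42, 0.72 and -0.34 (numbers 1 to 3 share a batch, number 4 does not), and at -0.00053, -0.040, -0.30 and 0.12 with batch removed. Not every pair was above 0.1 either way, so the numbers were not taken to pair the libraries. Among the named members, signs turned for changes that did not pass: without the batch term and with the replicate block, respectively, Kcnj11 was at 0.064 and 0.065 and Kcnk3 at 0.097 and 0.11. With a library left out, the log2 fold change ranged from -0.054 to 0.011 for Kcnj11, -0.28 to 0.057 for Kcnt2 and -0.037 to 0.019 for Kcnk3; the cause was not tested. The interaction could not be fitted without Klf4 siRNA replicate 3. Members called between batches numbered 13 to 18 when a library was left out, and Kcnj9 and Kcnip3 were the calls lost most often.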

Other observations

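A further 8 members were tested although their mean was below 1 CPM, and 3 of them differed between batches, against 32.7% of all genes tested. The 3 were chosen here after their values were seen. Kcna5, a voltage-gated channel gene, had 0.268 and 0.425 CPM with scramble and 0.101, 0.207 and 0.207 CPM with Klf4 siRNA in batch 1 (5 to 20 counts), and 1.68, 1.92 and 1.31 CPM in batch 2. It was 6.06-fold higher in batch 2 (edgeR adjusted p = 5.47e-09), and its log2 fold change after Klf4 siRNA was -0.62 (SE 0.22, edgeR adjusted p = 0.072). Kcnk10, a 2-pore channel gene, was 2.28-fold higher in batch 2 (edgeR adjusted p = 2.76e-05), and Kcnn3, a small-conductance calcium-activated channel gene, had a log2 difference of -0.61 (0.046). Kcnq1ot1 had 50.2 CPM in Klf4 siRNA replicate 3 against 25.3 to 35.9 CPM in the 7 other libraries.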
